A study of Mus musculus with 12 samples.

Results

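The 105 immunoglobulin heavy chain variable segments described here are the genes of the count table whose symbol begins with Ighv and that had at least 10 reads summed over 12 RNA-seq libraries of sorted bone marrow hematopoietic stem cells (HSCs). They were chosen from 185 Ighv genes in the table by that total alone, 26 of the other 80 had no read and 54 had fewer than 10. The members held 75989 reads, 99.8% of all Ighv reads. The libraries came from Ythdc1Δ/Δ mice (Ythdc1 fl/fl Mx1-Cre, given pIpC) and from Ythdc1+/+ mice (Mx1-Cre without floxed alleles, also given pIpC), on a C57BL/6 background and 8 weeks old according to the methods. Mx1-Cre is switched on by the interferon that pIpC elicits and is known to act in other cell types besides HSCs, and where the deletion took place was not tested here. Each genotype had 6 libraries under 3 sample numbers (KO176, KO177 and KO209 for Ythdc1Δ/Δ, WT178, WT180 and WT207 for Ythdc1+/+), and counts were added up over the 2 libraries of a number, so that 3 samples stood against 3. Since no label ties a number to a separate mouse, the p-values describe the spread among these samples only, and that spread may be technical.

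A heavy chain variable segment encodes most of the part of an antibody heavy chain that meets antigen. The germline locus holds a long array of such segments, and a developing B cell joins 1 of them to a D and a J segment, so that each B cell and its descendants express a single functional heavy chain. The number after Ighv names the family, a group of segments of similar sequence, of which Ighv1 (J558) is the most numerous in the mouse. HSCs have not rearranged this locus, and abundant V segment mRNA is known from B cells and above all from the plasma cells that secrete antibody. Before rearrangement, unjoined segments give low level germline transcripts in early lymphoid cells.

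All 105 members lay on the minus strand of chromosome 12 of mm10, from 113578504 to 116000461. Of these, 91 were annotated as functional V genes and held 98.3% of the member reads, and 14 were annotated as V pseudogenes and held 1.71%. Exon lengths were 294 to 480 bases with a median of 351. Segments of a family resemble each other, and that bears on whether a read can be placed. Identity was taken over the length of the shorter transcript of a pair, and overhanging bases of the longer one were not compared. The median identity of a member to its nearest other Ighv segment was 95.4% (75.9% to 99.7%). In all, 12 members were at 98% or more, and the nearest segment was of the same family for 103. The sequences below are the last 100 bases of the V transcript, in GENCODE vM21 transcripts of the same assembly, for the segments that the results turn on and for the nearest relative of each. Capitals mark bases that differ between the pair.

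Ighv1-9, chr12:114583569-114584002: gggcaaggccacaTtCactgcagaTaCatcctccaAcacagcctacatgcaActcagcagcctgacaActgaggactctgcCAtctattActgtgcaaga

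Ighv1-77, chr12:115861867-115862355: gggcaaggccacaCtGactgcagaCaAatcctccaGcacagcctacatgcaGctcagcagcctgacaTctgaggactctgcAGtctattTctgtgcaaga

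Ighv14-4, chr12:114176438-114176867: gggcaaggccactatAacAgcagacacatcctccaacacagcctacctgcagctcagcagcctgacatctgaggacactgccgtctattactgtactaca

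Ighv14-1, chr12:113931953-113932382: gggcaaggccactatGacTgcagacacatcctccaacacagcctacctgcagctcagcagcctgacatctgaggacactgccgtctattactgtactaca

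Ighv1-50, chr12:115119748-115120219: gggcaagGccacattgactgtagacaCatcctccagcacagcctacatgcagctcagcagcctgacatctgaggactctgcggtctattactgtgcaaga

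Ighv1-69, chr12:115623161-115623595: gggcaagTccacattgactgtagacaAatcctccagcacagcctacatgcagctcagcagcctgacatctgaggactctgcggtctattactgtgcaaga

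Ighv11-2, chr12:114048241-114048812: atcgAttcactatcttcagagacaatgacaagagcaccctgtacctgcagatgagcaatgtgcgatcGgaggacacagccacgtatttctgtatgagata

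Ighv11-1, chr12:113981879-113982341: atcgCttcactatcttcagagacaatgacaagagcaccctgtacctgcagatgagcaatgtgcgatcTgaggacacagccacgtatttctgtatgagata

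Ighv1-9 stood apart from its nearest relative, with 90.9% identity to Ighv1-77 over the shorter transcript and 10 differences in the stretch shown. The other pairs differed by 2 bases in that stretch. Over the shorter transcript Ighv14-4 was 97.4% identical to Ighv14-1, Ighv1-50 was 97.2% identical to Ighv1-69 and Ighv11-2 was 98.9% identical to Ighv11-1. Transcripts of a pair could differ in length, with 461 bases for Ighv11-2 and 353 for Ighv11-1. The counts nevertheless did not move together within the pairs. Ighv1-50 had 343, 142 and 67 reads in KO176, KO177 and KO209, where Ighv1-69 had 41, 316 and 198. In WT207, Ighv1-50 had 1 read and Ighv1-69 had 350. Ighv14-1 had 272, 3 and 2 reads in the Ythdc1Δ/Δ samples, where Ighv14-4 had 356, 456 and 113. Ighv11-1 had 3, 9 and 57 reads in the Ythdc1Δ/Δ samples and 104, 9 and 3 in the Ythdc1+/+ samples, and its highest count stood in WT178, where Ighv11-2 was lowest. Multiply aligned reads were not counted, so levels and shares of the closest pairs may be too low by an unknown part. How their counted reads were divided is uncertain too, above all for Ighv1-62-2 and Ighv1-71, which differ by 1 base where they align.

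Taken as 1 group, Ighv segments were more abundant in Ythdc1Δ/Δ HSCs. Their summed level was 368, 289 and 648 CPM (counts of a gene relative to the TMM-scaled total of its sample) in KO176, KO177 and KO209, against 82.4, 118 and 130 CPM in WT178, WT180 and WT207. Every Ythdc1Δ/Δ sample was above every Ythdc1+/+ sample. The means were 435 ± 188 CPM in Ythdc1Δ/Δ and 110 ± 24.9 CPM in Ythdc1+/+ HSCs (SD, n = 3 each), a ratio of 3.94. The ratio was 3.28 among KO176, KO177, WT178 and WT180, whose numbers lie close together, and 4.96 between KO209 and WT207, 1 sample of each genotype. Without Ighv11-2, the segment with the most reads, it was 3.79. No p is given for this sum because it is a score over chosen members. Even so the segments took a small part of each library, 0.0283% to 0.0698% of the counts in Ythdc1Δ/Δ and 0.00815% to 0.0138% in Ythdc1+/+ samples. In bulk RNA, fewer cells of a type and less RNA per cell cannot be told apart.

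**Figure D1:**
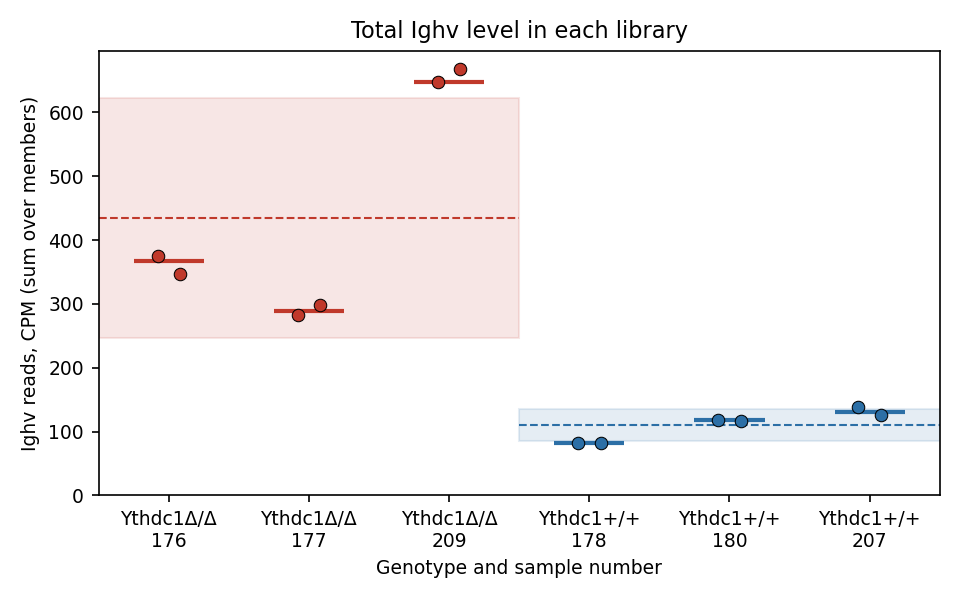
Summed level of the 105 Ighv members in CPM (vertical axis) in each library (points), by genotype and sample number (horizontal axis). Short lines are the 2 libraries of a number summed, dashed lines and bands are the genotype mean and 1 SD on either side (435 ± 188 CPM in Ythdc1Δ/Δ and 110 ± 24.9 CPM in Ythdc1+/+, n = 3 samples each), and no Ythdc1Δ/Δ library falls to the level of a Ythdc1+/+ library.

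A few segments carried much of this signal. Over all libraries, 11 of the 105 members held 50% of the reads and 44 held 90%. Within a sample, the 10 leading segments held 55.9% to 62.2% of the Ighv reads in Ythdc1Δ/Δ and 60.2% to 74.6% in Ythdc1+/+ samples. The effective number of segments (inverse Simpson index, the number of equally used segments that would give the same concentration) was 15.6, 18.8 and 13.9 in KO176, KO177 and KO209, against 14.9, 18.1 and 12.8 in WT178, WT180 and WT207. The genotypes overlapped in this number although their read totals differed. It counts mRNA, so 1 cell with much antibody mRNA weighs as many cells with little.

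Ighv11-2, the VH11 segment that B-1a cells use in antibodies to phosphatidylcholine, was the leading segment in 5 of 6 samples. It had 3236, 1781 and 7100 reads in the Ythdc1Δ/Δ samples and 450, 641 and 1446 reads in the Ythdc1+/+ samples. Its level was 76.6, 39.1 and 143 CPM in KO176, KO177 and KO209, against 10.8, 13.3 and 30.9 CPM in WT178, WT180 and WT207. The genotypes did not overlap, but its log2 fold change of 2.24, with a standard error of 0.70, did not pass (adjusted p = 0.453, edgeR quasi-likelihood test). It passed in 3 of the 17 alternatives at the same fold change, with a covariate for the close and the later sample numbers (adjusted p = 0.0468), with the 12 libraries apart (0.0251) and with the replicate block on them (0.0367). The fits on 12 libraries take the libraries of a number as independent samples, which they are not. The share of Ighv11-2 in the Ighv reads was 20.8%, 13.5% and 22.2% in the Ythdc1Δ/Δ samples and 13.1%, 11.3% and 23.7% in the Ythdc1+/+ samples, so as a share the genotypes did overlap. Per kb of exon the mean of Ighv11-2 was 187 CPM in Ythdc1Δ/Δ and 39.8 CPM in Ythdc1+/+ HSCs. Next on that scale in Ythdc1Δ/Δ HSCs was Ighv1-64, at 49.5 CPM per kb. In Ythdc1+/+ HSCs the next was Ighv1-26, at 17.2 CPM per kb, with Ighv1-64 at 14.4 CPM per kb. Adjusting for exon length left the leading segment of every sample as it was.

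Below Ighv11-2 the leading segments changed with the sample. In KO176 it was followed by Ighv5-17 (6.35%) and Ighv5-4 (5.07%). In KO177 the next were Ighv9-3 (7.27%) and Ighv1-64 (6.46%), and in KO209 Ighv8-8 (6.96%) and Ighv1-47 (5.88%). In WT178 they were Ighv1-55 (10.1%) and Ighv7-3 (9.06%). WT180 was led by Ighv1-26 (13.3%), with Ighv6-3 (6.6%) in the third place. In WT207 Ighv5-16 (6.84%) and Ighv1-69 (5.73%) followed Ighv11-2. No segment other than Ighv11-2 was among the first 3 in more than 1 sample.

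**Figure D2:**
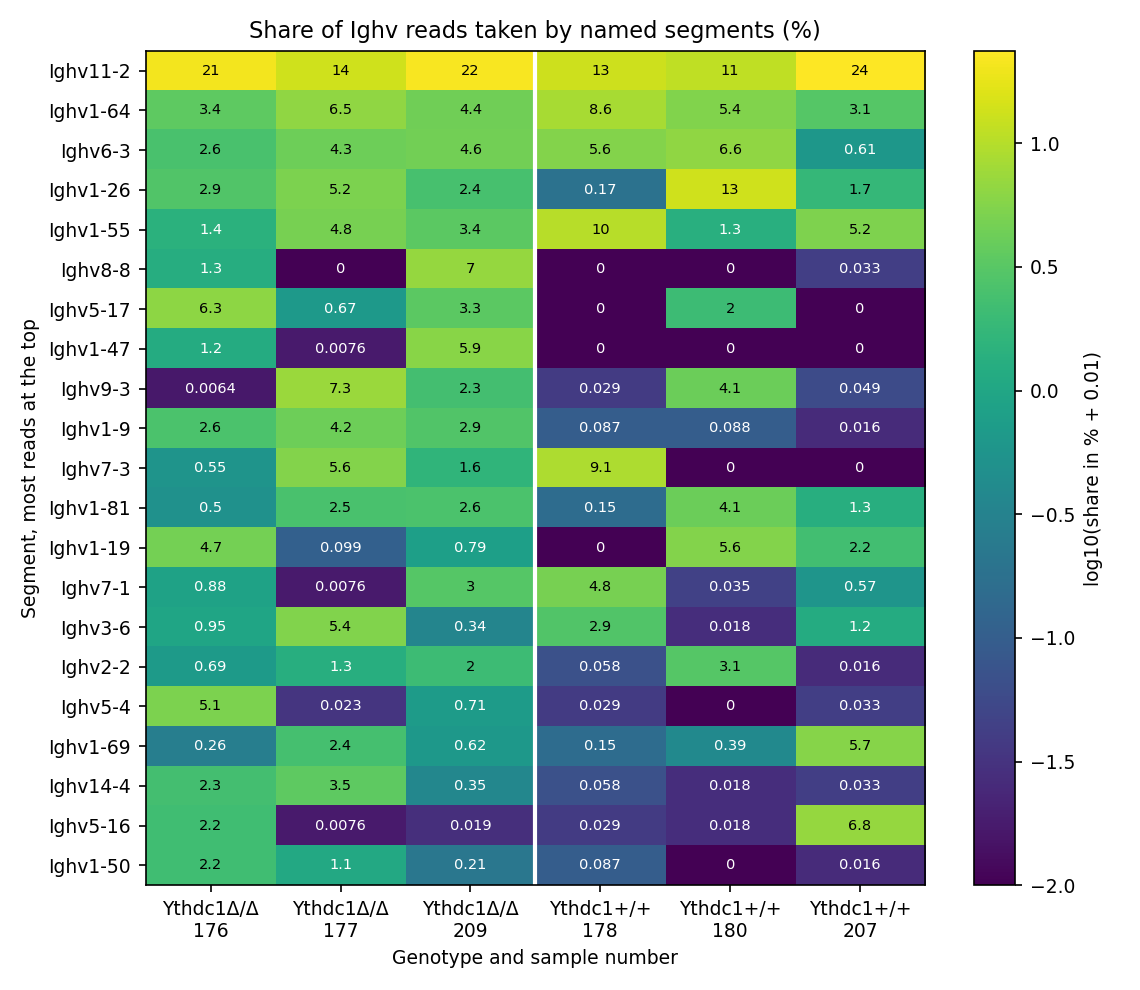
Share of the Ighv reads of a sample (numbers in the cells, in %, and colour, as the log10 of the share plus 0.01) for 21 segments (rows, most reads at the top) in 6 samples (columns, Ythdc1Δ/Δ left of the white line). Ighv11-2 is between 11.3% and 23.7% in every sample, while Ighv8-8, Ighv1-47, Ighv7-3 and Ighv5-16 are high in some samples and near 0 in others.

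Several of these segments were close to absent from some samples and prominent in others of the same genotype. Ighv8-8 had 197, 0 and 2229 reads in KO176, KO177 and KO209, and 0, 0 and 2 in WT178, WT180 and WT207. Ighv1-47 had 183, 1 and 1883 reads in the Ythdc1Δ/Δ samples and none in the Ythdc1+/+ samples. Both were therefore high in KO209, present in KO176 and near 0 in KO177. A count of 0 allows up to 3 reads, which is 0.00936% to 0.0228% of the Ighv reads in Ythdc1Δ/Δ and 0.0491% to 0.0874% in Ythdc1+/+ samples, for counting error only. Against that limit over the Ythdc1+/+ group, Ighv1-47 was at least 686-fold higher in the pooled Ythdc1Δ/Δ samples, almost wholly through KO209. Despite their reads neither segment was tested, because too few samples reached the minimum count.

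Other segments were high in samples of both genotypes and low in the rest. Ighv5-16 had 342, 1 and 6 reads in the Ythdc1Δ/Δ samples and 1, 1 and 418 in the Ythdc1+/+ samples, so that KO176 and WT207 stood apart from the other four. Ighv7-3 had 85, 737 and 516 reads in KO176, KO177 and KO209, against 311, 0 and 0 in WT178, WT180 and WT207. Ighv1-26 had 449, 682 and 784 reads in the Ythdc1Δ/Δ samples and 6, 755 and 106 in the Ythdc1+/+ samples, with WT180 among the highest and WT178 the lowest. Ighv1-69 had 41, 316 and 198 reads in the Ythdc1Δ/Δ samples and 5, 22 and 350 in the Ythdc1+/+ samples. In each of these segments the genotypes overlapped.

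Over all members, 55 had at least 50% of their CPM in 1 of the 6 samples, where an even spread would give each 16.7%, and 20 had at least 80% in 1 sample. The leading sample of the 55 was KO209 for 19, KO176 for 16, KO177 for 9, WT207 for 6, WT180 for 3 and WT178 for 2. Ythdc1Δ/Δ samples, which held more Ighv reads, thus led 44 of them. The unevenness was not limited to low counts, since 42 of the 71 members with at least 100 reads were among the 55. Among these, Ighv1-18 had 952 of its 967 reads in KO209 and Ighv1-49 had 629 of its 635 in KO176. Ighv10-3 had 689 reads in KO177, 147 in WT207 and 4 or fewer in each of the other samples. Of the Ythdc1+/+ samples, WT207 held 108 of the 113 reads of Ighv1-11.

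**Figure D3:**
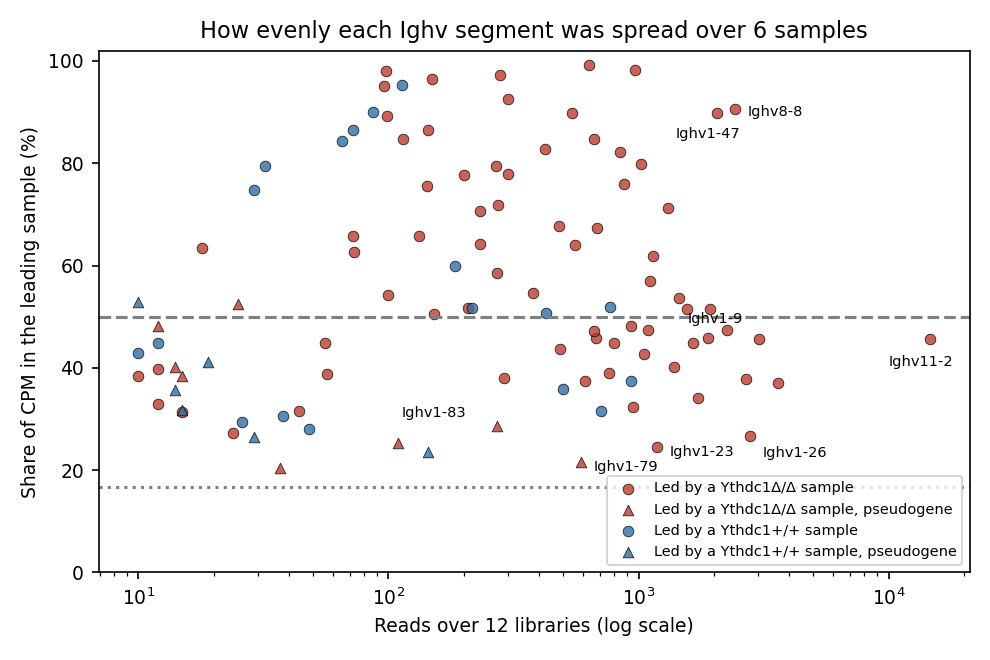
Share of a segment's summed CPM that lies in its leading sample (vertical axis, in %) against its reads over 12 libraries (horizontal axis, log scale) for the 105 members. Colour gives the genotype of the leading sample and triangles are pseudogenes, the dotted line is an even spread (16.7%) and the dashed line 50%, and Ighv1-79, Ighv1-23 and Ighv1-26 lie low although they have many reads.

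The 2 libraries of a sample number had nearly the same segments. The leading segment was the same in both libraries of all 6 numbers. Of 225 segment and sample entries with at least 20 reads in a library, 218 were within 2-fold between the 2 libraries, with a median ratio of 1.17. The widest gaps were those of Ighv1-80 in WT207 (3.81-fold) and Ighv1-55 in WT180 (3.29-fold).

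By family, Ighv1 held 43.7% of the member reads with 58 of the 105 members, and Ighv11 held 19.5% with 2 members, almost wholly through Ighv11-2. Ighv5 followed with 6.78%, Ighv6 with 4.89%, Ighv8 with 4.72%, Ighv9 with 4.19%, Ighv7 with 3.90%, Ighv2 with 3.48% and Ighv14 with 3.35%. Ighv3, Ighv10 and Ighv4 held 1.98%, 1.76% and 1.43%, and Ighv12 and Ighv13 had 1 member each with 0.13%. The share of Ighv1 was 43.9%, 46.2% and 40.2% in KO176, KO177 and KO209, against 39.9%, 58.3% and 45.1% in WT178, WT180 and WT207. WT180, the sample led by Ighv1-26, was the highest and the genotypes overlapped.

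The smaller families varied more. Ighv5 took 17.1% of the reads in KO176, 0.84% in KO177 and 4.11% in KO209, against 5.65%, 2.53% and 11.9% in WT178, WT180 and WT207. Ighv7 took 1.43%, 5.60% and 4.66% in the Ythdc1Δ/Δ samples and 13.8%, 0.04% and 0.57% in the Ythdc1+/+ samples. Ighv14 was the only one of the 14 families whose share was higher in every Ythdc1Δ/Δ sample, with 5.81%, 3.67% and 3.08% in KO176, KO177 and KO209, against 0.32%, 1.80% and 1.0% in WT178, WT180 and WT207. No family had a lower share in every Ythdc1Δ/Δ sample. Its 4 members did not share a pattern, since Ighv14-4 led in KO177, Ighv14-1 in KO176 (272 of 280 reads) and Ighv14-2 in KO209 (490 of 542). Ighv14-3 had 276, 9 and 381 reads in the Ythdc1Δ/Δ samples and 3, 73 and 53 in the Ythdc1+/+ samples.

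**Figure D4:**
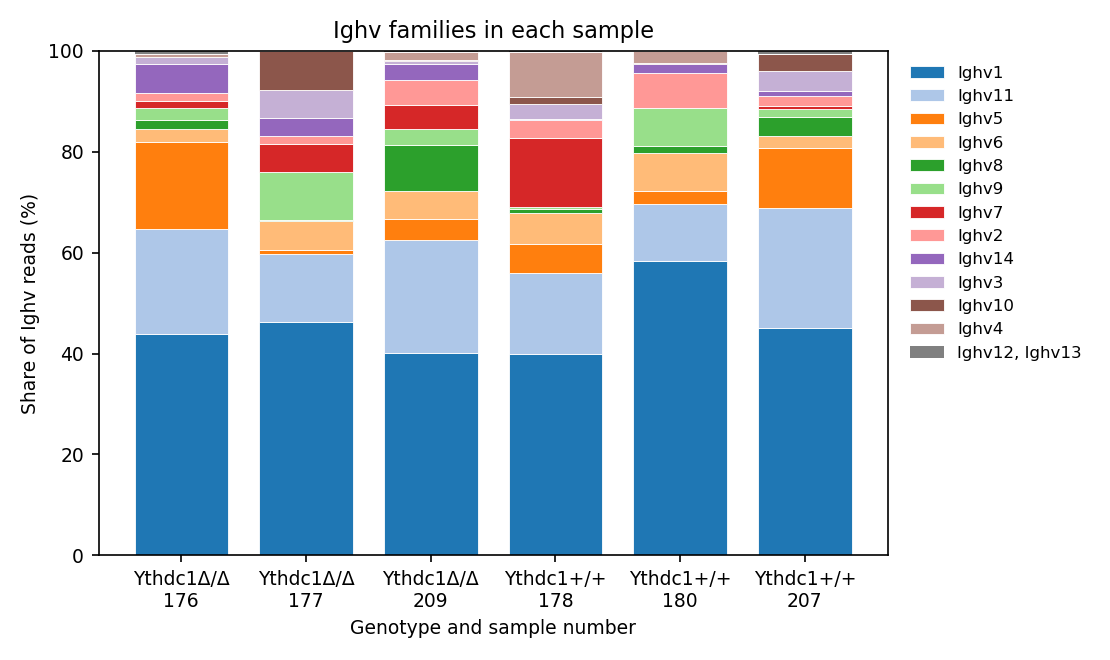
Share of the Ighv reads of a sample (vertical axis, in %) taken by each family (colours), by genotype and sample number (horizontal axis). Ighv1 is the broadest band in all 6 samples (39.9% to 58.3%), Ighv11 takes 11.4% to 23.7%, and bands such as Ighv5, Ighv7 and Ighv10 are wide in some samples and thin in others.

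In level, 5 of the 14 families were higher in every Ythdc1Δ/Δ sample than in any Ythdc1+/+ sample (Ighv1, Ighv6, Ighv9, Ighv11 and Ighv14), and none was lower. Of all genes tested, 7.75% were higher and 8.59% lower in this way. Those shares are for single genes, whereas a family level is a sum over its members, untested ones included, so the units are unlike. Ighv1 summed to 161, 134 and 260 CPM in KO176, KO177 and KO209, against 32.8, 68.7 and 58.8 CPM in WT178, WT180 and WT207. Ighv14 summed to 21.4, 10.6 and 19.9 CPM in the Ythdc1Δ/Δ samples and 0.26, 2.12 and 1.30 CPM in the Ythdc1+/+ samples, the widest ratio of means among these 5 (14.1). Ighv4, with its single member Ighv4-1, had 89, 0 and 553 reads in the Ythdc1Δ/Δ samples and 309, 135 and 2 in the Ythdc1+/+ samples.

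Position in the locus did not part the genotypes. The members lay 156 to 2577 kb from Ighm, the constant gene at the near end. The nearer part, up to 1367 kb, held 55 members of 13 families and 64.8% of the reads. It took 67.1%, 68.3% and 62.2% of the Ighv reads in KO176, KO177 and KO209, against 65.9%, 67.9% and 61.0% in WT178, WT180 and WT207. The farther part held 50 members of the families Ighv1 and Ighv8 only. Ighv5-2 (VH81X), the segment that joins most often in fetal and early B cell precursors, had few reads, with 9, 6 and 4 in the Ythdc1Δ/Δ samples and 3, 4 and 12 in the Ythdc1+/+ samples.

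Segments with a known specificity besides Ighv11-2 were unevenly spread. Ighv7-1, the segment of the T15 antibodies to phosphorylcholine, had 137, 1 and 977 reads in the Ythdc1Δ/Δ samples and 164, 2 and 35 in the Ythdc1+/+ samples. Ighv12-3, another segment of antibodies to phosphatidylcholine, had 2, 0 and 56 reads in KO176, KO177 and KO209, against 5, 0 and 37 in WT178, WT180 and WT207. Ighv1-72 (V186.2), known from the response to the hapten NP, had 204, 7 and 245 reads in the Ythdc1Δ/Δ samples and 3, 80 and 74 in the Ythdc1+/+ samples. In all 3 the genotypes overlapped.

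A different pattern was seen in the pseudogenes, which cannot encode a heavy chain. Their summed level was 5.42, 6.0 and 5.74 CPM in KO176, KO177 and KO209, against 4.18, 3.86 and 3.35 CPM in WT178, WT180 and WT207. The means were 5.72 ± 0.29 CPM in Ythdc1Δ/Δ and 3.80 ± 0.42 CPM in Ythdc1+/+ HSCs (SD, n = 3 each), a ratio of 1.51, where the functional segments had a ratio of 4.03. The 4 pseudogenes with at least 100 reads had 21.5% to 28.7% of their CPM in the leading sample, where the median of the 67 functional members at that depth was 54.2%. Ighv1-79 had 116, 110 and 137 reads in the Ythdc1Δ/Δ samples and 76, 80 and 68 in the Ythdc1+/+ samples. Ighv1-83 had 52, 78 and 56 reads in the Ythdc1Δ/Δ samples and 24, 36 and 27 in the Ythdc1+/+ samples. Both were therefore higher in every Ythdc1Δ/Δ sample with little spread within a genotype, and neither passed the test, with log2 fold changes of 0.69 (standard error 0.21, adjusted p = 0.316, edgeR) and 1.09 (standard error 0.28, adjusted p = 0.270, edgeR).

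Ighv1-25 and Ighv1-41, the other pseudogenes at that depth, overlapped between the genotypes, and Ighv1-41 had 26, 15 and 10 reads in the Ythdc1Δ/Δ samples and 20, 12 and 26 in the Ythdc1+/+ samples. Ighv1-23, annotated as functional, was as even, at 4.57, 6.35 and 4.34 CPM in KO176, KO177 and KO209, against 3.91, 3.67 and 3.10 CPM in WT178, WT180 and WT207. It differed by 0.52 on the log2 scale with a standard error of 0.21 (adjusted p = 0.468, edgeR). These even segments, named after their values were seen, had standard errors at the low end of the members, which ranged from 0.21 to 2.24 with a median of 1.29. A low share in the leading sample did not always go with a low spread. Ighv1-26, with 26.6% in its leading sample, had a standard error of 1.22, and 6 reads in WT178 against 755 in WT180.

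The segments were then compared by genotype in a fit over 18234 genes, in which 48 of the 105 members passed the filter on low counts and 57 were not tested. In Ythdc1Δ/Δ HSCs, 3 members were higher at an adjusted p under 0.05 (edgeR quasi-likelihood test, Benjamini-Hochberg adjustment over all genes), where 0.0877% of all genes were higher. None was lower, where 0.0494% of all genes were, and DESeq2 gave none lower either. Without WT178 the count of higher members was 1 (1 of 19138 genes called), as it was without WT207 (2 of 18905 genes). With both present but another sample left out it was 2 to 4, where 6 to 81 genes were called. At an unadjusted p under 0.05 the counts were 15 higher and 0 lower, where 4.28% of all genes were higher and 5.2% lower. Without overlap between the genotypes, 16 of the 48 were higher and 0 lower, where 7.75% of all genes were higher and 8.59% lower in this way. Of the 48 log2 fold changes 43 were positive and 5 negative, with a median of 1.58 against -0.01 over all genes. Members that reach the minimum count only through the samples in which they are high had to differ, and 5 of the 48 (Ighv1-9, Ighv14-4, Ighv8-12, Ighv1-50 and Ighv1-52) had 10 reads or more in Ythdc1Δ/Δ samples only. All 3 called members are among these 5. The counts are a description and lend no weight to a difference. Of all 105 members, 24 reached 10 reads through the Ythdc1Δ/Δ samples alone and 7 through the Ythdc1+/+ samples alone.

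Ighv1-9, a segment of the J558 family, had 408, 557 and 925 reads in KO176, KO177 and KO209, against 3, 5 and 1 reads in WT178, WT180 and WT207. Its level was 9.65, 12.2 and 18.7 CPM in the Ythdc1Δ/Δ samples and 0.07, 0.10 and 0.02 CPM in the Ythdc1+/+ samples. It was thus among the 10 segments with the most reads and nearly confined to 1 genotype. Its log2 fold change reached 7.63 with a standard error of 0.45 (adjusted p = 9.3e-05, edgeR), and the ratio of the pooled levels was 209.1 (95% exact interval 109.9 to 458, for counting error only). Its adjusted p was at most 0.00674 under the 17 alternative settings, which does not bear on the limit that it reached the minimum count through Ythdc1Δ/Δ samples only.

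Ighv14-4 had 356, 456 and 113 reads in KO176, KO177 and KO209, against 2, 1 and 2 reads in WT178, WT180 and WT207. On the log2 scale the difference was 7.45 with a standard error of 0.85 (adjusted p = 0.0216, edgeR), and the ratio of the pooled levels was 184 (95% exact interval 78.7 to 569, for counting error only). Ighv14-4 too reached the minimum count through Ythdc1Δ/Δ samples only, a limit on which the alternatives do not bear. It passed in 12 of the 17 alternatives, where its adjusted p reached 0.265. It was not called without KO176 (adjusted p = 0.0514), without WT178 (0.265), without WT180 (0.207), without WT207 (0.202) or without the filter (0.117).

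Ighv1-50 had 343, 142 and 67 reads in the Ythdc1Δ/Δ samples and 3, 0 and 1 in the Ythdc1+/+ samples. KO176 held 64.0% of its CPM, so it was itself among the sample-dominated members. Its fitted log2 difference was 7.01 with a standard error of 1.09 (adjusted p = 0.0484, edgeR). The ratio of the pooled levels was 137 (95% exact interval 53.4 to 506, for counting error only and not for the spread between samples). The fitted value was 6.12 without KO176 and 8.30 without WT178. Like the other called members, Ighv1-50 reached the minimum count through Ythdc1Δ/Δ samples only, and the alternatives do not bear on that limit. It passed in 8 of the 17 alternatives, and its adjusted p reached 0.502 without WT207. It was 0.0673 without KO177, 0.456 without WT178 and 0.465 without WT180.

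The uncalled segment with the smallest adjusted p was Ighv1-64, the second in reads. It had 536, 851 and 1423 reads in KO176, KO177 and KO209, against 295, 308 and 187 in WT178, WT180 and WT207, or 12.7, 18.7 and 28.8 CPM in the Ythdc1Δ/Δ samples and 7.08, 6.39 and 3.99 CPM in the Ythdc1+/+ samples. The genotypes did not overlap, and its log2 fold change of 1.79 with a standard error of 0.33 did not pass (adjusted p = 0.156, edgeR). It passed in 4 of the 17 alternatives, with DESeq2 (adjusted p = 3.7e-07), with the 12 libraries apart (0.00138), with the replicate block on those libraries (0.00293) and without KO176 (0.0277), at log2 fold changes of 1.79 to 2.04. The fits on 12 libraries take the libraries of a number as independent samples, which they are not. Ighv6-3 also did not overlap, with 397, 567 and 1459 reads in the Ythdc1Δ/Δ samples and 191, 375 and 37 in the Ythdc1+/+ samples. Ighv1-55 (223, 638 and 1081 reads in the Ythdc1Δ/Δ samples against 348, 75 and 318 in the Ythdc1+/+ samples) and Ighv9-3 (1, 958 and 741 reads in the Ythdc1Δ/Δ samples against 1, 232 and 3 in the Ythdc1+/+ samples) did overlap. Ighv5-17 had 987, 88 and 1068 reads in KO176, KO177 and KO209, against 0, 115 and 0 in WT178, WT180 and WT207. Its log2 fold change of 4.23 had a standard error of 1.6 and did not pass (adjusted p = 0.530, edgeR). Without WT180, which holds all of its Ythdc1+/+ reads, the fitted value was 12.5, which depends on the prior count and is no bound.

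**Figure D5:**
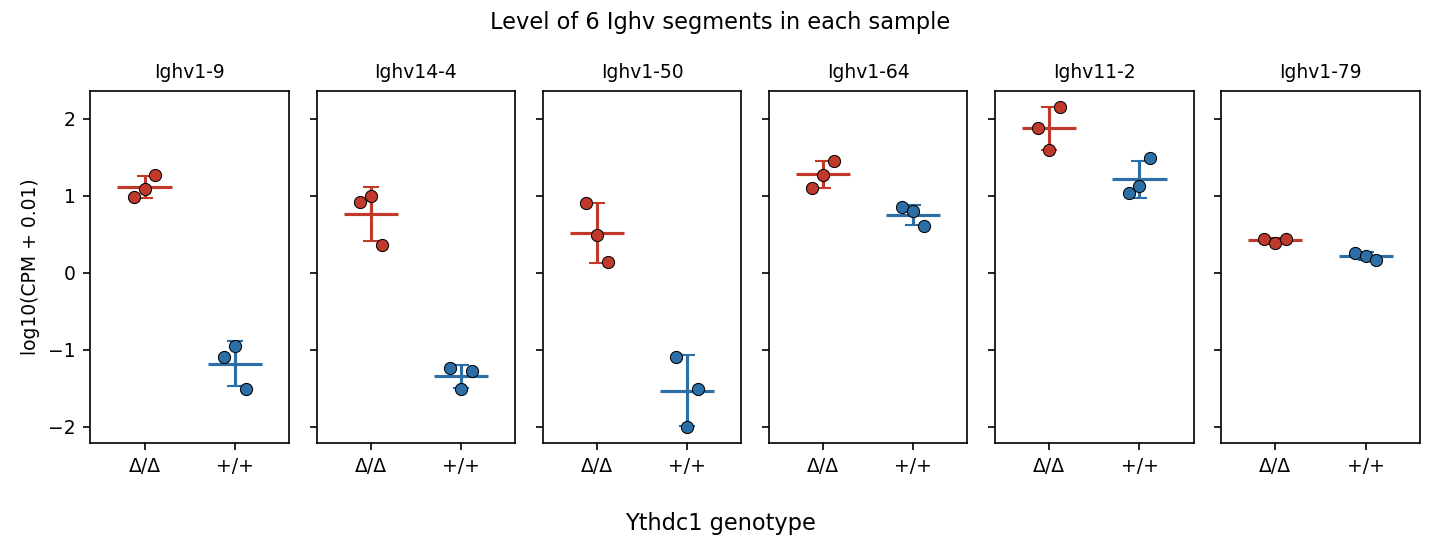
Level of 6 segments as log10(CPM + 0.01) (vertical axis) in each sample (points), Ythdc1Δ/Δ left of Ythdc1+/+ in each panel. Lines and bars are the mean and SD on that scale (n = 3 samples). Ighv1-9, Ighv14-4 and Ighv1-50 passed the test, having reached the minimum count through Ythdc1Δ/Δ samples only. Ighv1-64, Ighv11-2 and Ighv1-79 did not pass, although their genotypes do not overlap either.

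The 8 sample-dominated segments with the most reads did not pass or were not tested, while Ighv1-50, with fewer reads, was both sample-dominated and called. Ighv1-81 had 78, 333 and 835 reads in the Ythdc1Δ/Δ samples and 5, 234 and 80 in the Ythdc1+/+ samples. Ighv1-19 had 730, 13 and 253 reads in KO176, KO177 and KO209, against 0, 317 and 137 in WT178, WT180 and WT207. Their log2 fold changes of 1.94 and 1.21 had standard errors of 1.21 and 1.58, and neither passed (adjusted p = 0.684 and 0.852, edgeR). Ighv3-6 had 147, 711 and 108 reads in the Ythdc1Δ/Δ samples and 99, 1 and 72 in the Ythdc1+/+ samples. Ighv2-2 had 107, 173 and 654 reads in the Ythdc1Δ/Δ samples and 2, 174 and 1 in the Ythdc1+/+ samples. Both led in 1 Ythdc1Δ/Δ sample, and each overlapped with the Ythdc1+/+ range. Ighv5-4 had 789, 3 and 227 reads in the Ythdc1Δ/Δ samples and 1, 0 and 2 in the Ythdc1+/+ samples, and was not tested.

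Other antibody and B lineage genes were read beside the segments. The 8 heavy chain constant genes summed to 2299, 1709 and 3356 CPM in KO176, KO177 and KO209, against 684, 874 and 820 CPM in WT178, WT180 and WT207. The level of Ighv segments relative to these constant genes was 0.160, 0.169 and 0.193 in the Ythdc1Δ/Δ samples and 0.120, 0.135 and 0.159 in the Ythdc1+/+ samples. Ighm, the IgM constant gene, was at 1538, 1313 and 2771 CPM in the Ythdc1Δ/Δ samples and 581, 679 and 741 CPM in the Ythdc1+/+ samples (adjusted p = 0.120, edgeR). All 7 tested constant genes had a positive fold change and none passed. Igkc, the kappa constant gene, was at 2074, 1147 and 3063 CPM in the Ythdc1Δ/Δ samples and 324, 567 and 713 CPM in the Ythdc1+/+ samples (adjusted p = 0.285, edgeR). All 5 light chain and joining chain genes had a positive fold change, and none passed. Jchain, which joins IgM and IgA into polymers, was at 228, 156 and 483 CPM in the Ythdc1Δ/Δ samples and 35.3, 91.7 and 92.3 CPM in the Ythdc1+/+ samples.

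Cell type markers were read next. Of 13 plasma cell markers, 13 had a positive fold change with a median log2 of 0.70, and 1 passed, Pou2af1 (a B lineage coactivator), at 3.01, 2.95 and 3.17 CPM in KO176, KO177 and KO209, against 0.79, 0.98 and 1.15 CPM in WT178, WT180 and WT207 (adjusted p = 0.0332, edgeR). Their summed level was 604 to 770 CPM in Ythdc1Δ/Δ and 505 to 684 CPM in Ythdc1+/+ samples, mostly from genes such as Xbp1 that other cells also express. Besides Pou2af1, Mzb1, Eaf2 and Slamf7 were higher in every Ythdc1Δ/Δ sample, with log2 fold changes of 1.33, 1.07 and 1.23 that did not pass (adjusted p = 0.238, 0.286 and 0.151, edgeR). No marker of this list was lower in every Ythdc1Δ/Δ sample, where 7.75% of all genes tested were higher and 8.59% lower in this way. Sdc1 and Prdm1, which define plasma cells, overlapped between the genotypes and averaged 13.4 and 0.74 CPM in Ythdc1Δ/Δ and 10.3 and 0.59 CPM in Ythdc1+/+ HSCs. Of 13 B cell markers 10 were positive and none passed, with sums of 287 to 314 CPM in Ythdc1Δ/Δ and 298 to 307 CPM in Ythdc1+/+ samples, mostly from Cd37 and Cd79b. Of these 13, 4 were higher in every Ythdc1Δ/Δ sample (Cd79a, Ebf1, Fcmr and Bank1) and none lower, beside the same 7.75% and 8.59% of all genes. Cd79a, a subunit of the B cell receptor, averaged 14.7 ± 2.18 CPM in Ythdc1Δ/Δ and 7.36 ± 0.64 CPM in Ythdc1+/+ HSCs (SD, n = 3 each; adjusted p = 0.0622, edgeR). Of 9 pro-B and pre-B cell markers 9 were positive with a median log2 of 0.74 and none passed, and their sums, mostly Dntt, were 314 to 408 CPM in Ythdc1Δ/Δ and 197 to 251 CPM in Ythdc1+/+ samples. Of these 9, 3 were higher in every Ythdc1Δ/Δ sample (Dntt, Vpreb3 and Lef1) and none lower, beside the same shares of all genes. No marker of these lists was at 0 in a sample. Of the 9 HSC gate genes 4 were positive and none passed, and Kit averaged 206.7 ± 49.7 CPM in Ythdc1Δ/Δ and 250 ± 13.7 CPM in Ythdc1+/+ HSCs (SD, n = 3 each). Flt3 and Cd48, which long-term HSCs lack at the surface, averaged 428 and 363 CPM in Ythdc1Δ/Δ and 363 and 297 CPM in Ythdc1+/+ HSCs. Slamf1, Procr, Mecom and Hlf of the same list were also present in every sample. Levels of mRNA do not give surface protein, and which HSC subsets the sorted cells held was not tested. The sort removed B220+ cells, and the part of B lineage or plasma cells in the Ighv levels was not tested.

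Library depth did not differ as the Ighv levels did, with 22481622 to 24118972 counts per Ythdc1Δ/Δ library and 20809936 to 24563170 per Ythdc1+/+ library. Ythdc1 mRNA averaged 65.3 ± 7.37 CPM in Ythdc1Δ/Δ and 80.4 ± 10.7 CPM in Ythdc1+/+ HSCs (SD, n = 3 each), counted over all exons, those outside the deleted part included. At the limit for membership, Ighv5-12, Ighv8-15 and Ighv9-2 had 10 reads each, and outside it Ighv6-5 had 9 and Ighv3-1 had 8. Such segments were too shallow for any reading by genotype.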

How the data were processed

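Polyadenylated RNA of sorted HSCs was amplified with a low input SMARTer kit and sequenced. The deposited values are raw counts, which the authors obtained by assigning read pairs to genes with featureCounts 2.0.1 on GENCODE vM23 exons of mm10 without regard to strand and, as the file header shows, without counting multiply aligned reads. Samples were aligned with Hisat2 per the methods. All 12 sample columns were used. Gene symbols and transcripts were taken from GENCODE vM21, in which all 185 Ighv genes lie at the same place.

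Counts of the 2 libraries of a number were summed, filtered (filterByExpr, minimum count 10, minimum total 15), scaled by TMM and tested with edgeR 4.0.16 (quasi-likelihood, robust, legacy=FALSE) in R 4.3.3 over 18234 genes. Steps were tested on simulated data in which every gene had the same dispersion, so that test does not cover the uneven spread of these segments. The log2 fold change is Ythdc1Δ/Δ minus Ythdc1+/+. Identities came from edlib 1.3.9.post1. Alternatives are given in the closing section. The members and lists were chosen with earlier results of these data known. Segments were named if called, among the 10 with the most reads, among the first 3 of a sample, among the 8 deepest sample-dominated ones or at the membership limit. All other segments were named after their values were seen.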

Additional observations from a re-analysis of the deposited data

How the results depend on the processing

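No segment was lower in Ythdc1Δ/Δ HSCs at an adjusted p under 0.05 in any of the 17 alternatives, and Ighv1-9, which reached the minimum count through Ythdc1Δ/Δ samples only, was higher in all 17. The count of higher segments was 3 of 48 tested in the reported fit, where 25 of 18234 genes were called in either direction. It was 13 of 39 with the 12 libraries as separate samples (751 of 15551 genes). With the close and the later sample numbers as a covariate it was 7 of 48 (85 of 18234 genes), and with DESeq2 7 of 48 (217 of 18234). Without a filter on low counts it was 1 of 105 (73 of 45534). It ranged from 1 (without WT178, or without WT207) to 4 when a sample was left out, where 1 to 81 genes were called. With the digit that follows the sample number as a replicate block it was 12 of 39, in a fit over 12 libraries (717 of 15551 genes). The fits over 12 libraries take the 2 libraries of a number as independent samples, which they are not. Libraries of opposite genotype and the same digit had correlations of -0.22 to 0.31 (median 0.06, 18 pairs), against -0.23 to 0.23 (median -0.04, 18 pairs) for the other digit. These ranges overlap and cannot settle whether a digit marks a shared step. RLE scaling, scaling without immunoglobulin genes, the legacy option and a stricter filter gave 2 each, each time without Ighv1-50. Over all genes these settings called 23, 13, 15 and 3. The cause of these shifts was not tested. Of 289 comparisons for 17 named tested segments, 265 kept direction and side of the threshold, 14 lost the call, 8 gained it (Ighv1-64 in 4, Ighv11-2 in 3 and Ighv5-17 in 1), and 2 uncalled values changed sign, Ighv1-19 without KO176 (-0.23, against up to 2.29 without another sample) and Ighv1-69 without KO177 (-0.10, against up to 3.73). The ratio of summed levels was 2.98 to 4.60 with a sample left out, 3.88 on raw totals and 4.03 for members with at least 100 reads. The mean share of Ighv1 was 45.6% of reads, and 46.9% per kb. At a limit of 80% in place of 50%, 20 members were dominated by 1 sample. With 3 samples per genotype and few reads in Ythdc1+/+ samples, segments of low count could not be compared.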

Other observations

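Light chain segments known to pair with the phosphatidylcholine heavy chains were looked up after the values of the heavy chains were seen. Igkv14-126, the kappa segment that B-1a cells combine with Ighv11-2, was at 272, 139 and 477 CPM in KO176, KO177 and KO209, against 58.8, 59.8 and 131 CPM in WT178, WT180 and WT207. Ighv11-2 was at 76.6, 39.1 and 143 CPM in the Ythdc1Δ/Δ samples and 10.8, 13.3 and 30.9 CPM in the Ythdc1+/+ samples. The lowest and the highest sample within each genotype were the same for both segments, though Igkv14-126 barely differed between WT178 and WT180. The summed Ighv level, Ighm and Igkc had the same lowest and highest samples, so this order was not particular to the pair. Whether the chains were paired in a cell was not tested. Igkv4-91, the partner of Ighv12-3, was at 21.9, 0 and 10.3 CPM in the Ythdc1Δ/Δ samples and listed at 0 in the Ythdc1+/+ samples, where Ighv12-3 had 37 reads in WT207.

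Ighv1-62-2 and Ighv1-71, which differ by 1 base over their aligned transcripts, had similar patterns, with 43, 1 and 29 reads and 82, 0 and 50 reads in KO176, KO177 and KO209, and none in the Ythdc1+/+ samples.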
